A study of Sus scrofa domesticus with 16 samples.

Results

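Membrane transporters were taken from the deposited table of differentially methylated CpG sites (DMSs) of pig lung by gene symbol: solute carriers (SLC and SLCO), the MFSD family and aquaporins (AQP), the ATP-binding cassette families ABCA to ABCG, and genes whose symbol is ATP followed by a digit. ATP2B1 was left out by this rule. The rule found 38 DMSs in 33 genes, of 2349 DMSs and 898 gene symbols in the whole table. Reduced representation bisulfite sequencing (RRBS), which reads cytosine methylation in fragments that the enzyme MspI cuts at CCGG, had been carried out on lung DNA of 16 domestic pigs. In the standard dose group, 8 animals had feed with 2000 IU/kg (grower) and 1500 IU/kg (finisher) of cholecalciferol (vitamin D3). In the increased dose group, 8 animals had 3000 and 2500 IU/kg, and each group held 4 males and 4 females. The animals of both groups were otherwise fed alike and kept in individual pens until slaughter, and the piece of lung came from the upper lobe of the left lung.

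Transporters move solutes across membranes. Solute carriers let ions, sugars, amino acids and metabolites pass along or against gradients, ABC transporters use ATP to export lipids, drugs and conjugates, and P-type and V-type ATPases pump ions or flip phospholipids. In the lung, sodium, chloride and bicarbonate transport sets the volume and pH of the liquid that lines airways and alveoli, and lipid transporters load surfactant into lamellar bodies. The active form of vitamin D acts through a nuclear receptor and is known for its control of calcium and phosphate transport genes in gut and kidney.

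Each value below is the methylation difference of 1 CpG in the authors' deposited table, in percentage points, increased minus standard dose. A positive value (a gain) means higher methylation with the increased dose, and a negative value (a loss) means lower methylation. The table holds 1 difference per site for all 16 animals. The level in each animal, the spread between animals and the read depth are therefore unknown here, and no error can be given with any difference. In bulk lung, a shift in the share of cell types and a shift in methylation within cells cannot be told apart. All sites in the table had passed the limits of 25 points and a q-value of 0.05, so that passing them is no finding about transporters. If the row numbers of the table count the tested sites, at most 0.352% of the tested sites (667810 or more) had passed.

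The sequence around the sites is shown first because 31 of the 38 lay in repeat-masked sequence, and because windows of different transporter genes resembled each other. Each line below gives 102 bases of Sscrofa11.1, 5′ to 3′, with the listed CpG in capitals. The sequences of ATP6V1C1 and SLC26A8 are printed for the CpG that aligned at the same place of 1 shared element and that had lost methylation in both, at an identity of 83.5%.
ATP6V1C1 (chr4:34143930-34144031, plus strand, fell by 43.5 points): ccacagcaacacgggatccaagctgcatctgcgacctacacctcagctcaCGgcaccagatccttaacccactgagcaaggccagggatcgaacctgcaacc
SLC26A8 (chr7:31785848-31785949, minus strand, fell by 31.3 points): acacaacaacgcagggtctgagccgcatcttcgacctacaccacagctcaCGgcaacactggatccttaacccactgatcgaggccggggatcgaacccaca

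The next windows are shown because the same element carried both directions. The listed CpGs of SLC2A10 and SLC26A8 aligned with each other at an identity of 88.2% and differed in direction. The window of ABCC5, which gained methylation, was 93.6% identical to that of SLC26A8, the highest identity between windows that do not overlap. The listed CpGs of ABCC5 and SLC26A8 did not align, so their opposite directions were at different CpGs of the element.
SLC2A10 (chr17:48843485-48843586, plus strand, gain of 26.2 points): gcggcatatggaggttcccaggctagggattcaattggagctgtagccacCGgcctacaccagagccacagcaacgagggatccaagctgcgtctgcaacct
SLC26A8 (chr7:31747537-31747638, plus strand, fell by 29.6 points): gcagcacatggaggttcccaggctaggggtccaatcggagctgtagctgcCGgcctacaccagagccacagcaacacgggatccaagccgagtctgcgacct
ABCC5 (chr13:121879259-121879360, plus strand, gain of 27.0 points): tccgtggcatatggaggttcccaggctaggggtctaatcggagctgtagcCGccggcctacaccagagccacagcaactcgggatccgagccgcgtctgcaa

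The window of SLC4A4, far upstream of its gene in RefSeq, is shown for the smallest q-value among the transporter sites (6.8e-65).
SLC4A4 (chr8:67756885-67756986, plus strand, fell by 43.4 points): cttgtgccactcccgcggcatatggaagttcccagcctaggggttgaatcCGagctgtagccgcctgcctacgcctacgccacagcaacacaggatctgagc

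The increased dose went with higher methylation at 24 of the 38 sites (63.2%) and lower at 14. Over the whole table, 59.3% of DMSs were gains, so the share among transporters was close to the background. With 1 vote per gene, 22 of 33 transporter genes (66.7%) had a mean gain, beside 59.9% of all gene symbols. The gains of transporter sites had a median of 27.0 points, beside a median gain of 30.7 over the table. Their losses ran from -26.4 to -43.5 points with a median of -29.4, beside -29.8. Differences of at least 40 points were found at 4 transporter sites (10.5%), among them ATP6V1C1, SLC4A4 and SLC25A45, and at 13.7% of all DMSs. The largest transporter loss was the 58th largest loss of the table. Close to the limit, 5 sites had differences under 26 points, and all of them were gains, in ATP8A2, ABCC10, ATP12A, ATP2C1 and ABCD4.

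**Figure D1:**
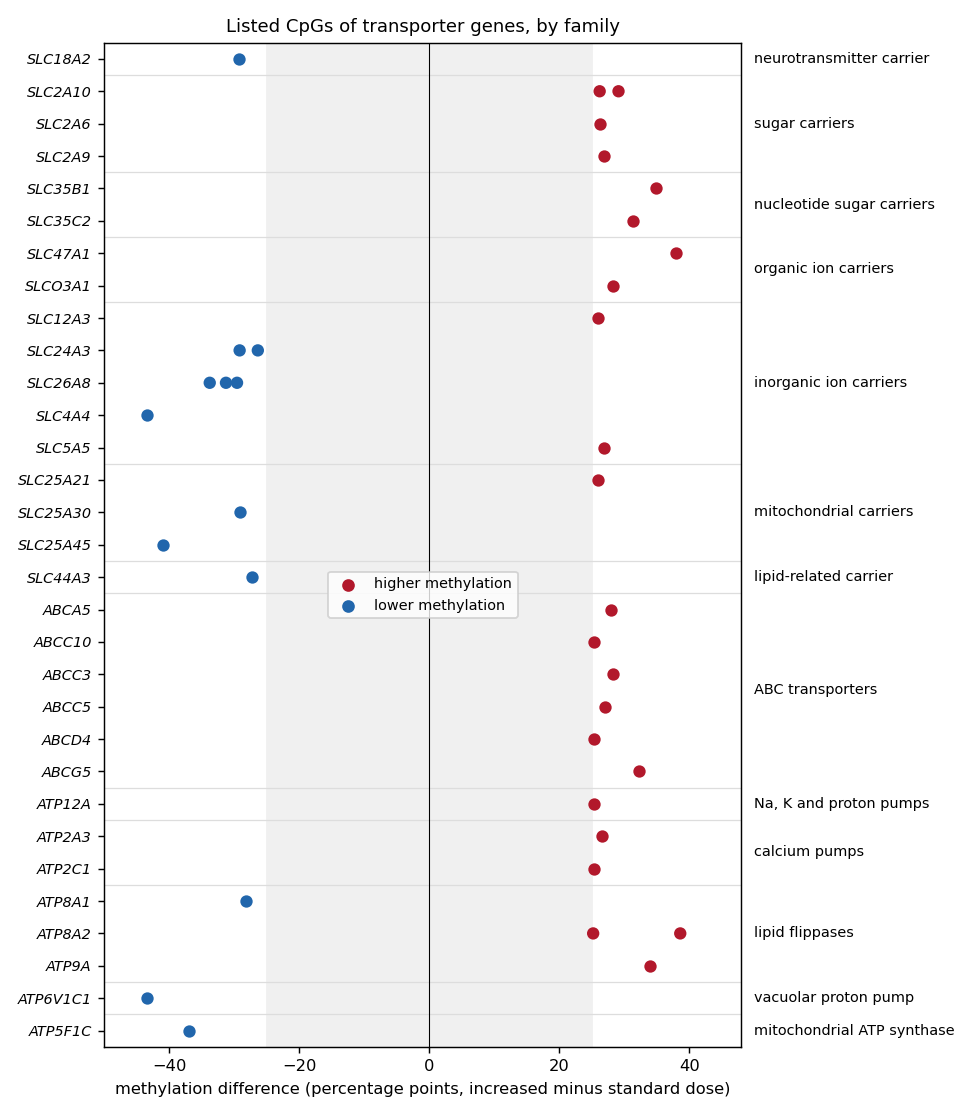
The plot gives the methylation difference (x axis, percentage points, increased minus standard dose) of 36 listed CpGs of transporters, with 1 line per gene and genes grouped by family. Points on the right are gains and points on the left losses, and the grey band holds differences under 25 points, which the table does not list. All 6 ABC transporters listed by symbol lie on the right, while 6 of the 8 plotted sites of inorganic ion carriers lie on the left. Of these 6 losses, 3 are of SLC26A8 and 2 of SLC24A3. Among all listed CpGs, 59.3% were gains.

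Sites listed under an ABC symbol were gains at 6 of 6, beside 59.3% of all DMSs, with 1 site in each of 6 genes out of 40 annotated by RefSeq. A further site, to which the table gives no symbol, lay in an intron of ABCC4 and was a loss of -28.6 points (chr11:64240988, q = 8.1e-23), so the direction was not shared by all sites in ABC genes. Over all protein-coding genes of RefSeq, 4.61% had a listed site in the gene body, and 5.71% with 5000 bp to each side. The 6 of 40 is not the same measure, since it counts symbols and the ABCC10 site lay outside its gene. The largest gain was 32.3 points in ABCG5 (chr3:96628348, intron 4 of 12, q = 2.9e-32), a subunit of the exporter that returns plant sterols and cholesterol to gut and bile. ABCC3, which exports conjugated organic anions such as glucuronides, gained 28.2 points in its intron 28 of 32 (chr12:26967009, q = 3.3e-07). ABCA5, a lysosomal transporter linked to cholesterol handling, gained 28.0 points. ABCC5, an exporter of cyclic nucleotides and nucleotide analogues, gained 27.0 points. ABCD4, which takes part in moving cobalamin (vitamin B12) out of lysosomes, gained 25.4 points, and ABCC10, a drug exporter, 25.3 points at 1350 bp upstream of the gene. No site listed under an ABC symbol lay in an exon or in a promoter of 1000 bp, though a promoter of 2000 bp would hold the ABCC10 site. ABCA3, the lipid transporter of surfactant-making cells, had no listed site.

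P-type pumps of protons and calcium held gains, the direction of 59.3% of all DMSs. ATP12A, the non-gastric proton-potassium pump, which acidifies airway surface liquid in humans, gained 25.3 points in intron 12 of 22. ATP2A3, a calcium pump of the endoplasmic reticulum, gained 26.5 points, and ATP2C1, the calcium and manganese pump of the Golgi, 25.3 points.

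Lipid flippases, the P-type ATPases that move phospholipids from the outer to the inner leaflet, were split. ATP8A2, which flips phosphatidylserine and is best known from neurons, had gained 38.6 points in intron 20 of 36 (chr11:3423746, q = 1.1e-30) and 25.2 points in intron 24 (chr11:3498354, q = 1.6e-17), 74608 bp apart. ATP9A, an endosomal member, gained 34.0 points in its next to last intron, number 26 of 27 (chr17:52942330, q = 9.9e-11). ATP8A1, a flippase of phosphatidylserine in many tissues, lost methylation instead, with a difference of -28.2 points in intron 1 of 38 (chr8:33606198, q = 3.1e-07). By RefSeq it was the only site listed under a transporter symbol that lay in a first intron, and it lay 31.1 kb from the start of the gene. The study's own annotation listed it upstream of the gene instead.

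The remaining ATP symbols belong to rotary enzymes, and both lost methylation. ATP6V1C1, the C subunit of the vacuolar proton pump that acidifies lysosomes and secretory vesicles, was the symbol with the largest loss, -43.5 points (chr4:34143980, q = 4.1e-24). The site lay 58990 bp upstream of the gene in RefSeq, in no RefSeq gene. The study's own annotation, made with Ensembl gene models, lists it in an intron of ATP6V1C1. Its tie to the gene thus depends on the gene model. ATP5F1C, the gamma subunit of mitochondrial ATP synthase, had a difference of -37.0 points (chr10:63581477, q = 2.0e-13) at 2811 bp downstream of the gene. Among sites listed under a transporter symbol, this CpG was the only one in an exon of any kind, that of a long non-coding RNA (LOC110255717).

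Among solute carriers, 11 sites gained and 11 lost methylation, in 18 genes out of 360 in RefSeq. Over the whole table, 59.3% of DMSs were gains and 40.7% losses. Inorganic ion carriers held most of the losses of solute carriers, with 7 losses and 2 gains at 9 sites in 6 genes. By gene, 4 had a mean loss and 2 a mean gain. So few sites and genes cannot be read against the share of the whole table. SLC4A4, the electrogenic sodium bicarbonate cotransporter, had the second largest loss among the transporters, -43.4 points (chr8:67756935, q = 6.8e-65). The site lay 12020 bp upstream of the gene in RefSeq, but in an intron by the study's own annotation. SLC26A8, an anion exchanger known from sperm, had 3 listed sites and all were losses. They were -31.3 (chr7:31785898, q = 9.1e-24) and -33.8 points (chr7:31785964, q = 4.7e-27) in intron 2 of 20, and -29.6 points (chr7:31747587, q = 4.6e-12) in intron 11. SLC24A3, a potassium-dependent sodium-calcium exchanger, had losses of -29.2 (chr17:27462970, q = 3.2e-12) and -26.4 points (chr17:27462984, q = 4.8e-11), both in intron 2 of 17. The gains were those of SLC5A5, the sodium iodide symporter of the thyroid, with 26.9 points, and SLC12A3, the thiazide-sensitive sodium-chloride cotransporter of the kidney, with 26.0 points.

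Carriers of sugars, nucleotide sugars and organic ions, separate families put together here, held gains only, at 8 sites in 7 genes. Over the whole table, 59.3% of DMSs were gains, and 8 sites are too few to be read against that share. The SLC2A10 sites among them lay 49 bp apart. SLC2A10, a facilitative glucose transporter family member, gained 29.1 (chr17:48843486, q = 2.6e-43) and 26.2 points (chr17:48843535, q = 1.4e-32) at 675 and 724 bp downstream of the gene. SLC2A9, a urate transporter, gained 26.9 points at 4240 bp upstream of the gene, and SLC2A6, another member of the glucose transporter family, 26.2 points. SLC35B1, a nucleotide carrier of the endoplasmic reticulum, gained 34.8 points at 467 bp downstream of the gene (chr12:25881365, q = 4.4e-13). SLC35C2, a Golgi protein that takes part in fucosylation of Notch, gained 31.3 points at 2670 bp downstream (chr17:48509772, q = 5.4e-06). SLC47A1, which extrudes organic cations such as metformin, gained 38.0 points in intron 2 of 17 of the gene annotated in RefSeq as multidrug and toxin extrusion protein 1-like (chr12:60058270, q = 9.6e-28). SLCO3A1, an organic anion transporting polypeptide, gained 28.2 points.

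Mitochondrial and other carriers were mixed. SLC25A45, a member of the mitochondrial carrier family, had a difference of -41.0 points at 949 bp downstream of the gene (chr2:6858835, q = 1.3e-26). SLC25A30, another member, had -29.1 points at 3088 bp downstream (chr11:21845154, q = 9.6e-13). SLC25A21, the oxodicarboxylate carrier, gained 26.0 points in a gene of 519 kb. SLC18A2, which loads monoamines into vesicles, had a difference of -29.3 points in intron 9 of 15 (chr14:127372101, q = 1.0e-12). SLC44A3, of the choline transporter-like family, had -27.3 points and the largest q-value of the transporter sites (4.0e-05). Grouped by symbol, no site was listed for any of 31 metal carriers, 12 vitamin carriers, 11 aquaporins, 5 ATPases of the P5 class, 2 copper pumps or 18 MFSD genes of RefSeq. Over all protein-coding genes, only 4.61% had a listed site in the gene body. Families of these sizes are too small for an absence to be read.

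**Figure D2:**
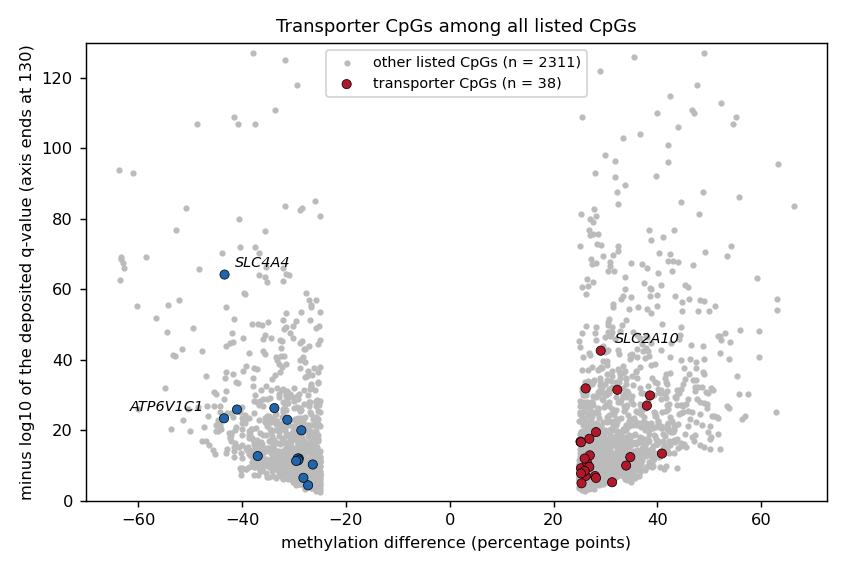
Each point is a listed CpG, with its difference in percentage points on the x axis and minus log10 of its deposited q-value on the y axis. The 38 transporter CpGs (large points) lie within the cloud of the other 2311 (grey), which reaches 66.3 points on the side of gains; 27 other CpGs lie above the end of the axis at 130.

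A list of 16 genes of alveolar fluid, ion and surfactant transport held 2 genes with a listed site, ATP8A1 and SLC4A4. Both were losses. By RefSeq they lay in intron 1 and far upstream, so that 1 of the 16 had a site in its RefSeq gene body. The study's own annotation placed them the other way round, ATP8A1 upstream of its gene and SLC4A4 in an intron. A list of 13 calcium, phosphate and drug transporters known as vitamin D targets, of which 12 are in RefSeq, held 1, the gain in an intron of ABCC3. Counts of 1 gene per list are too small to be read against the 4.61% of all protein-coding genes. The phosphate carriers SLC34A1, SLC34A2, SLC34A3, SLC20A1 and SLC20A2, the sodium-calcium exchanger SLC8A1 and the drug exporter ABCB1 had no listed site. Since the table lists only sites past its limits, a missing gene may have been unchanged, changed by less, or not covered.

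Over all of RefSeq, 25 of 509 transporter genes (4.91%) had a listed site in the gene body, beside 4.61% of 19549 protein-coding genes. With 5000 bp to each side the shares were 6.48% and 5.71%. Among genes whose body holds CpGs of an MspI fragment of 40 to 220 bp, the share of transporters was the lower one, 4.95% of 505 beside 5.04% of 17845. This range does not mark what was covered. The MspI fragments that held listed sites had a median of 281 bp for transporter sites and 280 bp for all DMSs on chromosomes. Transporter genes had a median length of 33.3 kb, beside 20.7 kb for all protein-coding genes. Among genes with a listed site in the body the order was the reverse. There the median was 57.6 kb for transporters and 85.8 kb for all protein-coding genes. Of the 33 member genes, 11 were longer than 100 kb, a count that was not made for other genes with a listed site. RefSeq gene bodies added 4 sites to which the deposited table gave another symbol or none. They were a gain of 36.0 points in an intron of SLC25A37, the mitochondrial iron importer, a gain of 30.7 points in the 3′ UTR of SLC25A15, the ornithine carrier, the loss in ABCC4, an exporter of organic anions and cyclic nucleotides, given above, and a difference of -26.3 points in an intron of SLC3A2, the heavy chain of amino acid exchangers, listed under SNORD30.

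By RefSeq gene models, 27 of the 38 sites lay in introns of their own gene, and 11 lay outside, 4 upstream and 7 downstream. None lay in a coding exon, a UTR or the 1000 bp upstream of a gene, regions that together held 94 of the 2252 DMSs placed on chromosomes. Introns held 71.1% of transporter sites, beside 57.5% of all DMSs on chromosomes and 81.6% of other DMSs with a symbol. Of the 27 intronic sites, 9 were in the first 3 introns. Gains lay between 28.3% and 95.5% of the gene's length from its 5′ end (median 63.2%, 18 sites), and losses between 8.17% and 63.6% (median 37.8%, 9 sites), 3 of them in SLC26A8 and 2 in SLC24A3. These positions were not summarised for other DMSs, so the difference cannot be called a trait of transporter sites.

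**Figure D3:**
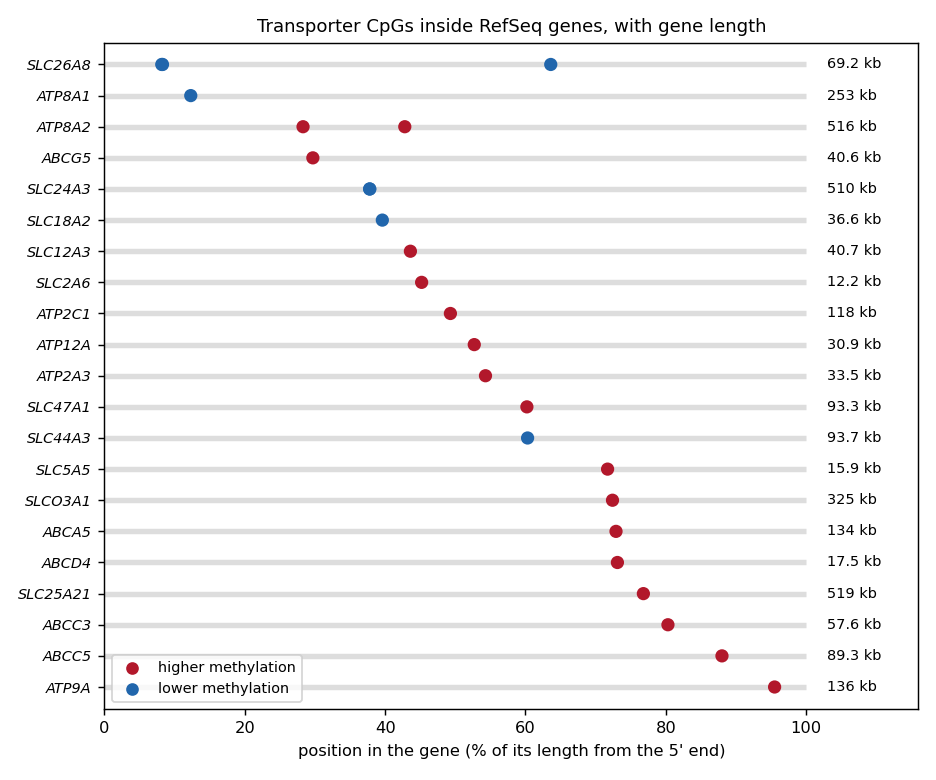
For each plotted gene with a listed CpG in its body, the grey line is the gene from its 5′ end (0%) to its 3′ end (100%), the points are its listed CpGs, and the gene length is at the right. Losses are in the left and middle part, up to 63.6%, and the 8 rightmost points, from SLC5A5 to ATP9A, are gains. Positions of other listed CpGs were not summarised for comparison.

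Neighbouring sites of 1 gene shared their direction in all 5 transporter pairs, and in 286 of 355 pairs (80.6%) of other genes. The 2 sites of SLC2A10 were 49 bp apart with no table row between them, so that no tested site separated them if rows are tested sites. Between the 2 sites of SLC24A3, 14 bp apart, there were 2 rows that had not passed, and between the near pair of SLC26A8, 66 bp apart, there were 3. The distant pair of SLC26A8 spanned 38311 bp with 8 rows between, and the pair of ATP8A2 had 83. Within 10000 bp, 1 transporter site had a listed neighbour outside its gene's symbol, a CpG 7756 bp from that of SLC25A30 with a difference of -32.2 points beside its -29.1. In total 31 of the 38 sites had no other listed site within that distance.

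CpG islands held 84.2% of transporter sites and 70.6% of all DMSs on chromosomes, where an island was any 200 bp stretch in which GC exceeded 0.5 and the CpG ratio (observed to expected) 0.6. With islands of at least 500 bp and stricter limits these shares were 15.8% and 17.3%. The CpG was itself that of an MspI cut site at 8 transporter sites (21.1%), beside 8.13% of all. Of these 8, 6 were gains, in ATP9A, SLCO3A1, SLC2A10, SLC12A3, ATP12A and ABCC10, and 2 were losses, in ATP8A1 and SLC26A8. Among all DMSs at a cut site, 98 of 183 were gains.

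Hexamers to which the vitamin D receptor can bind (AGGTCA and its variant AGTTCA, also with the start GGTTCA or else GGGTCA, on either strand) occurred within 150 bases of 20 transporter sites (52.6%) and of 44.2% of all DMSs on chromosomes. A direct repeat of a pair of them with 3 bases between occurred at 0 transporter sites and 0 of the 2252.

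**Figure D4:**
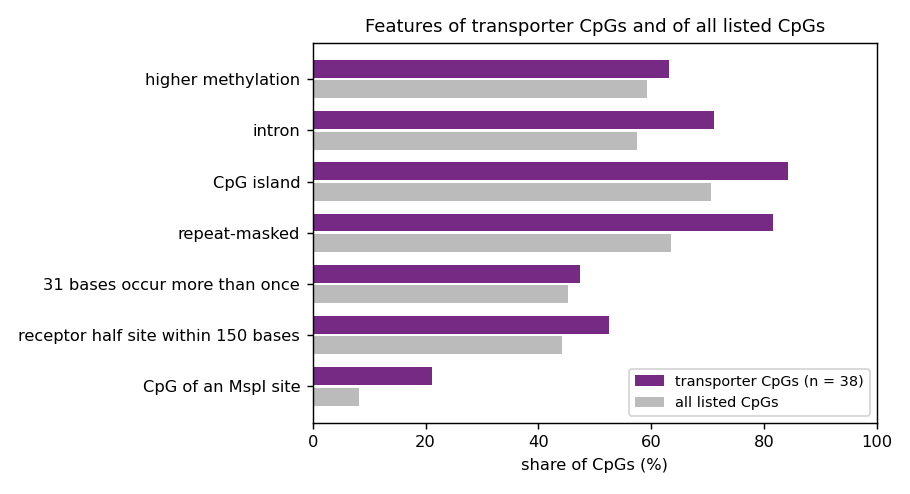
Bars give the share (%) of CpGs with each feature, for the 38 transporter CpGs and for all listed CpGs (2349 for direction, 2252 on chromosomes for the rest). The widest gaps are those of repeat-masked sequence (81.6% and 63.5%), introns (71.1% and 57.5%), CpG islands (84.2% and 70.6%) and CpGs of MspI sites (21.1% and 8.13%). Transporter CpGs were chosen by gene symbol, which by itself favours introns. Among other listed CpGs with a symbol, the share in introns was higher than theirs, 81.6%.

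Repeat-masked sequence, as marked by lower case in the RefSeq genome, held 81.6% of transporter sites and 63.5% of all DMSs on chromosomes. The 7 sites outside it were those of SLC35B1, ATP9A, ATP2A3, ATP12A, ATP8A1 and SLC44A3 and the second one of ATP8A2, with 5 gains and 2 losses. The 31 bases centred on the CpG occurred more than once in the genome at 18 transporter sites (47.4%), beside 45.2% of all. At 13 of them these bases had over 100 exact copies, with 41865 for SLC2A6 and 19298 for 1 site of SLC24A3. Among the 20 sites whose 31 bases occurred once, 12 were gains (60.0%), and among the 18 others also 12 (66.7%). The part of read placement in these values was not tested.

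Of the 38 windows of 102 bases, 21 in 18 genes were at least 80% identical over at least 80% of their length to the window of another transporter gene, in 4 groups. The largest group had 12 sites in 11 genes, with 7 gains (ABCC3, ATP2C1, ABCC5, SLC2A10, SLC5A5, ABCD4, SLC25A21) and 5 losses (ATP5F1C, 2 sites of SLC24A3, SLC26A8, SLC4A4). SLC47A1, SLC35C2 and SLC2A10 gained and SLC18A2 lost methylation in the next group. The group of ATP6V1C1 and SLC26A8, printed above, held losses only, and that of SLC12A3 and ABCC10 gains only. Not counting overlapping windows, 34 pairs of windows were alike, 17 with the same and 17 with opposite directions. In 7 pairs the listed CpGs themselves aligned, and 6 of these had the same direction. The exception was the pair of SLC2A10 and SLC26A8. Pairs share windows and are not independent of each other.

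The same bases were then looked up among all DMSs. The 12 bases found in most transporter windows, tcagtgggttaa, lay within 150 bases of 20 transporter sites (52.6%) in 17 genes, 12 of them gains. They lay equally near to 852 of the 2252 DMSs (37.8%), of which 507 were gains. This stretch was picked from the transporter windows, so its share among them is no comparison. The CpG of SLC26A8 at 31785898 lay in ctcaCGgcaa, as in its window printed above, and 53 listed CpGs had these 10 bases. Methylation was higher at 34 and lower at 19 of them, from -50.9 to 58.9 points, although that of SLC26A8 was a loss. The bases of the ABCC3 site, gatcCGagcc, were found at 46 listed CpGs with 31 gains, and those of ATP2C1 and SLC5A5 at 32 with 23 gains. For 14 of the 38 sites, among them that of ATP8A1, no other listed CpG had the same 10 bases. The largest losses, in ATP6V1C1, SLC4A4, SLC25A45 and ATP5F1C, each shared theirs with 1 other listed CpG.

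**Figure D5:**
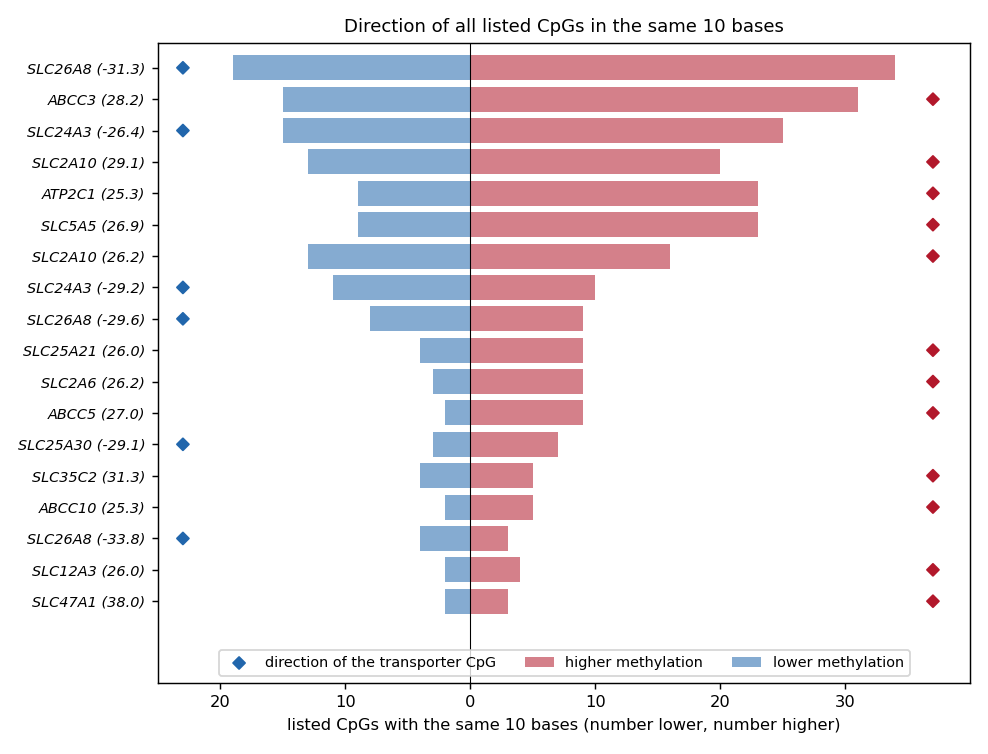
For each plotted transporter CpG whose 10 bases (the CpG and 4 bases to each side, either strand) were shared by at least 5 listed CpGs, itself included, bars to the right count gains and bars to the left losses among all listed CpGs with these bases. The diamond stands on the side of the transporter CpG's own direction, given with its difference beside the symbol; both directions occur in every row.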

How the data were processed

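DNA methylation was measured by RRBS in lung of 16 pigs. The sample labels gave each animal's group. By the methods of the study, reads were trimmed with FlexBar, aligned to Sscrofa11.1 with BSMAP, and CpGs with more than 5 reads were compared with methylKit. The submitters' processing notes name FastQC, methylKit 1.26.0 and Sscrofa11.1. The p-value and q-value of each site were deposited as the authors computed them with methylKit. The methylation difference is a signed score in percentage points, also computed by the authors from both groups, and its sign was read as positive where the increased dose had more methylation, since the study calls such sites hypermethylated. These columns are the authors' own comparison and hold no value of a single animal. Whether methylKit was set to correct for overdispersion among the animals is not stated in the methods used here, and without it the q-values would be too small. The depth per site is unknown, so the precision of single differences is not given. The number of unused columns with values of single samples was 0.

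Positions were compared with the RefSeq copy of Sscrofa11.1. All 2252 chromosomal positions were the C of a CpG, and 97 sites on scaffolds, none of a transporter, had no sequence features computed. Genes, introns and distances came from RefSeq annotation release 106 (3 of the 33 symbols matched through another RefSeq name). The study itself used Ensembl gene models, which place some of the sites differently. Promoters were set as 1000 bp before the gene start. Exact copies of 31 bases were counted on both strands of the genome, and windows were compared with blastn 2.17.0. Python 3.11.15, pandas 2.3.3 and scipy 1.17.1 were used. The functions were tested on simulated data. No test across animals or lists was run: counts and medians stand beside those of all DMSs. Transporter genes, families and lists were chosen with earlier results of these data known. Transporter genes are named except a few that are not reported here but stay in the counts and medians, and positions and q-values are given for the 8 largest gains and losses (1 site per gene), genes with several sites, and genes on the alveolar and vitamin D lists. Alternatives were q under 1e-10, at least 30 or 35 points, neighbours merged, autosomes only, RefSeq gene bodies, no ATP synthase or auxiliary proteins, other promoters, islands, neighbour distances and gene limits.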

Additional observations from a re-analysis of the deposited data

How the results depend on the processing

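Of 61 recomputed values, 39 stayed within 1.5 times the count, the 95% exact binomial interval of the share or 1 SD of the median. Counting neighbours up to 100 bp apart as 1, autosomes only, leaving out ATP synthase and auxiliary proteins, and RefSeq gene bodies moved no value past these bounds, nor did wider gene limits. A promoter of 2000 bp was applied to the share in introns only, which did not move. The absence of promoter sites does depend on this width, since the ABCC10 site lay 1350 bp upstream of its gene. With q under 1e-10, gains fell from 24 to 15. With at least 30 points, 13 sites in 12 genes remained past the limit, with 7 gains, a median gain of 34.8 and a median loss of -39.0. With at least 35 points there were 7 sites in 7 genes with 3 gains, a share of gains of 42.9% of sites and 42.9% of genes, and medians of 38.6 and -42.2. Both limits cut the sizes by construction. Stricter islands held 15.8% of sites in place of 84.2%. Neighbour pairs with the same direction numbered 3 at most 100 bp apart and 2 over 1000 bp apart, of 5. Settings chosen after seeing the data were sites outside repeat-masked sequence (7 sites in 7 genes, 5 gains) and sites whose 31 bases occur once (20 sites in 19 genes, 12 gains), with shares of gains of 71.4% and 60.0%.

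No paired analysis was possible because the table holds no value per animal. For the same reason no animal could be left out, no coverage minimum set and neither sex taken alone. With 38 sites, the exact interval of the share of gains runs from 46.0% to 78.2%; it treats sites as independent and covers counting error only.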
